A study of Mus musculus with 8 samples.

Results

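The Dlk1-Meg3 domain is an imprinted gene cluster of mouse chromosome 12, and its transcripts were followed here in differentiating blood-forming cells with and without induction of the transcription factor Runx1. Its members were the 7 genes Dlk1, Meg3, Rian, Mirg, 6430411K18Rik, Rtl1 and Dio3. A probe belonged to a member when the transcript it was designed for maps to that gene symbol in RefSeq. Of the 20145 named genes on the array, 6 were members with a probe, and no Rian probe was found. The members held 9 of 55681 probes. A further 83 probes, of 16181 named for genomic regions and not for genes, carried the names of 14 regions of the domain, from chr12:110653148-110653701 to chr12:111079867-111080561 (mm9). The domain was chosen by the measured difference between DOX+ and DOX- arrays, the contrast described below, so differences below are a description and carry no p-value of their own.

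In the domain, Dlk1, Rtl1 and Dio3 encode proteins and are expressed from the chromosome inherited from the father. Meg3, Rian, Mirg and 6430411K18Rik, which runs opposite to Rtl1, are noncoding RNAs expressed from the maternal chromosome, and they host many microRNAs and small nucleolar RNAs. A differentially methylated region between Dlk1 and Meg3 controls which parental copy is used. In the mouse embryo the cluster is known for roles in growth, and in the blood system for its activity in stem cells.

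Total RNA of iRUNX1 cells, a Tet-on line of C57BL/6 strain by the labels in which doxycycline switches on Runx1, was hybridised to 8 one-colour Agilent arrays. The DOX+ group had 3 arrays of hemogenic endothelium cells given 0.3 µl/ml doxycycline overnight (the unit as the labels write it). The DOX- group had 3 arrays of the same culture without induction, and each group had 1 further array called a technical repeat, kept apart here. All cells came from embryonic stem cells grown as embryoid bodies for 3.25 days, sorted for the receptor Flk-1, cultured, sorted for Flk-1 again and grown for 2 days in hemogenic endothelium medium. Both groups carry the inducible gene, and cells given doxycycline without it were not analysed here. The promoter and insertion site of the inducible gene, and whether replicates are separate differentiations, are not given in the sources used here. The p-values behind each call therefore measure the spread between these arrays.

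Promoter windows are shown for Dlk1 and Meg3, the pair of members whose window held a Runx core motif, and for Mirg, which held none. Each runs from 250 bases before to 50 bases after the annotated start on the + strand of GRCm38.p6 (RefSeq), and capitals mark TGTGGT, the core motif searched on both strands (ACCACA on the other strand). The Dlk1 window is chr12:109452573-109452872, the Meg3 window of its first start is chr12:109540746-109541045 and the Mirg window is chr12:109734731-109735030.
Dlk1 promoter: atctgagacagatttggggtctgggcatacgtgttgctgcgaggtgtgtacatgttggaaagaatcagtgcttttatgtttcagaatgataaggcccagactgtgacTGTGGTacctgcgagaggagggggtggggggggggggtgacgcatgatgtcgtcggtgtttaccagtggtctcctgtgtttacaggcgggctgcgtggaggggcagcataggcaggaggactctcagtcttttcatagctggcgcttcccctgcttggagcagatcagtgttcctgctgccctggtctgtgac
Meg3 promoter: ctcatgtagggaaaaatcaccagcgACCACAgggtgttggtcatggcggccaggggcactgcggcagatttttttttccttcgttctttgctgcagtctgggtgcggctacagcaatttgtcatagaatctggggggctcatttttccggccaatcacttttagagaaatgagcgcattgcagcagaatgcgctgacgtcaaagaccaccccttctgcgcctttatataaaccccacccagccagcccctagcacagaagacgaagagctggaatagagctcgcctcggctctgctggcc
Mirg promoter: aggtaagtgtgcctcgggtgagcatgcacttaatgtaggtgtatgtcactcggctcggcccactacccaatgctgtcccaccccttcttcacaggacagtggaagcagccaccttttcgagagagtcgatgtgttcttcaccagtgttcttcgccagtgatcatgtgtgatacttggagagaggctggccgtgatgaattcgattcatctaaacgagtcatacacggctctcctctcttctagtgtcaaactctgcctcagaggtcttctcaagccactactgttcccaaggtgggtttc
The motif stood 143 bases before the start of Dlk1 and 225 bases before the first start of Meg3. It was in 2 of the 7 windows that RefSeq gave for 6 members, and in 16.8% of the 32851 promoter windows of all genes. A match is only a match of letters. No match was found in the windows of Rian, Mirg, 6430411K18Rik, Dio3 or the second Meg3 start. The Dio3 window held 25 CG pairs, the first Meg3 window 13, the Mirg window 10 and the Dlk1 window 9. The second Meg3 window had 1 CG pair, and the windows of Rian and 6430411K18Rik had 0.

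The noncoding members are hosts of small RNAs. The RefSeq table places 61 microRNA loci with 114 mature sequences between Dlk1 and Dio3, of which 10 lie inside the Mirg span, 3 inside Rian, 2 inside Meg3 and 1 inside 6430411K18Rik. The Rtl1 span, which overlaps those of other members, holds 15. None of the 61 loci had a probe named for it, so the microRNAs themselves were not measured. Of the members named as hosts, Meg3, Mirg and 6430411K18Rik were measured. Rian had no probe, and the Rtl1 probe was not well above background on any array. A few mature sequences hosted by the 3 measured RNAs are shown with the seed, bases 2 to 8, in capitals.
mmu-miR-770-3p (Meg3 span, chr12:109563744-109563765): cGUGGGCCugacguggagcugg
mmu-miR-433-3p (6430411K18Rik span, chr12:109591781-109591802): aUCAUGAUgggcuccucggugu
mmu-miR-453 (Mirg span, chr12:109735669-109735692): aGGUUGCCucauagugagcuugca
mmu-miR-496a-5p (Mirg span, chr12:109739132-109739152): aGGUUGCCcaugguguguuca
All 4 are on the + strand of GRCm38.p6. The last pair, both from Mirg, share the seed GGUUGCC, and no other mature sequence inside these 3 spans shares a seed with another.

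Signals are given as log2 of the background-subtracted signal minus the 75th percentile of its array, so 0 is the signal at that percentile and 1 unit is a doubling. The 75th percentile signal was 543 to 973 intensity units on the DOX+ arrays and 338 to 699 on the DOX- arrays, and 55.6% to 70.4% of probes were well above background on the 8 arrays. The DOX+ technical repeat stood apart: its median absolute difference from the 6 replicate arrays was 0.41 to 0.69, against 0.19 to 0.46 among those 6 and 0.20 to 0.38 for the DOX- technical repeat. Across the fit, 32855 probes were kept because they were well above background on all 3 arrays of a group, and their median difference was 0.00. Relative to spike-in RNA, that median was 1.12, so spike-in scaling moves every difference by about that much. The median was 0.15 with median centring, 0.02 with quantile normalization and -0.14 with normexp background correction. The Runx1 probe that was kept had -6.14, -5.71 and -4.95 on the DOX+ arrays and -4.71, -4.72 and -4.28 on the DOX- arrays, a difference of -1.03 (SE 0.32) that did not pass but was called lower with the replicate number as a block. Whether either of the 2 Runx1 probes lies in the part that the inducible construct carries is not known here, so they do not check the labels.

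The 3 noncoding RNAs measured fell in DOX+ cells, a call that was not made with spike-in scaling. Meg3, Mirg and 6430411K18Rik were 3.05 to 3.55 times as high in DOX- cells, while the Dlk1 probes were 1.96 and 2.14 times as high in DOX- cells and did not pass. Of the 7 kept member probes, from 4 genes, 4 fell and 3 did not pass (limma, adjusted p under 0.05 over all kept probes). Of all kept probes 1.38% fell and 2.26% rose, 3.65% in either direction. Because the contrast chose the domain, nothing is read from that share. The median difference of the 7 probes was -1.67. With the replicate number as a block, all 7 fell, the Dlk1 probes among them, as did 4.29% of all kept probes. In these bulk samples, fewer cells that make a transcript and less of it per cell cannot be told apart.

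Meg3, a long noncoding RNA with tumour-suppressor activity in cell culture, was measured by 3 probes. The probe A_51_P455997 had 5.05, 4.48 and 4.68 on the DOX+ arrays, against 6.90, 6.40 and 5.73 on the DOX- arrays. The groups did not overlap, and Meg3 fell by 1.61 (SE 0.32). The probe A_55_P2033407 had 0.74, 0.87 and 0.40 on the DOX+ arrays, against 3.21, 2.39 and 1.90 on the DOX- arrays. Here too every DOX+ array lay below every DOX- array, and the signal fell by 1.83 (SE 0.34). The third probe, A_52_P196568, is assigned to another RefSeq transcript of Meg3 and had -0.51, -0.87 and -1.74 on the DOX+ arrays, against 1.39, 0.91 and -0.15 on the DOX- arrays. Its groups did not overlap, but its difference of -1.76 (SE 0.47) did not pass, although it fell with the replicate number as a block. The spread was widest for this probe, with SDs of 0.63 in DOX+ and 0.79 in DOX- cells (n = 3 each).

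Mirg, the microRNA-containing RNA at the far end of the maternal transcripts, had 2.69, 2.67 and 2.59 on the DOX+ arrays, against 4.76, 4.58 and 3.96 on the DOX- arrays. The DOX+ arrays lay close together, with an SD of 0.06 against 0.42 in DOX- cells (n = 3 each). Mirg fell by 1.78 (SE 0.23), the smallest standard error of the 7 kept probes. The antisense RNA 6430411K18Rik, host of miR-433 printed above, had -2.83, -2.68 and -3.08 on the DOX+ arrays, against -0.94, -0.77 and -1.87 on the DOX- arrays. The groups did not overlap, and it fell by 1.67 (SE 0.31). It lies over Rtl1 on the other strand, and the files do not give the probe's sequence.

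Dlk1 encodes a transmembrane protein with EGF-like repeats that is related to Notch ligands. Its probe A_66_P117477 had 4.84, 5.12 and 4.26 on the DOX+ arrays, against 5.91, 6.08 and 5.15 on the DOX- arrays. The highest DOX+ array lay just under the lowest DOX- array. The difference was -0.97 (SE 0.32), but 0.16 with spike-in scaling, and did not pass. The second probe, A_55_P2105371, had 1.91, 2.19 and 1.47 on the DOX+ arrays, against 3.33, 3.46 and 2.06 on the DOX- arrays. Its groups overlapped, since DOX+ replicate 2 was above DOX- replicate 3. The difference was -1.09 (SE 0.40), but 0.03 with spike-in scaling, and did not pass. Both Dlk1 probes fell with the replicate number as a block.

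The other protein-coding members were dim. The Rtl1 probe, for a retrotransposon-derived gene needed in the placenta, was not well above background on any array and read -8.43 to -7.55 on the DOX+ and -7.91 to -4.65 on the DOX- arrays. The Dio3 probe, for an enzyme that inactivates thyroid hormone, was well above background on 2 of 3 arrays in each group and read -5.84 to -5.38 on the DOX+ and -5.44 to -4.81 on the DOX- arrays. Neither entered the fit. The Dio3 antisense gene Dio3os, which is no member, was also above background on 2 of 3 arrays in each group.

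**Figure D1:**
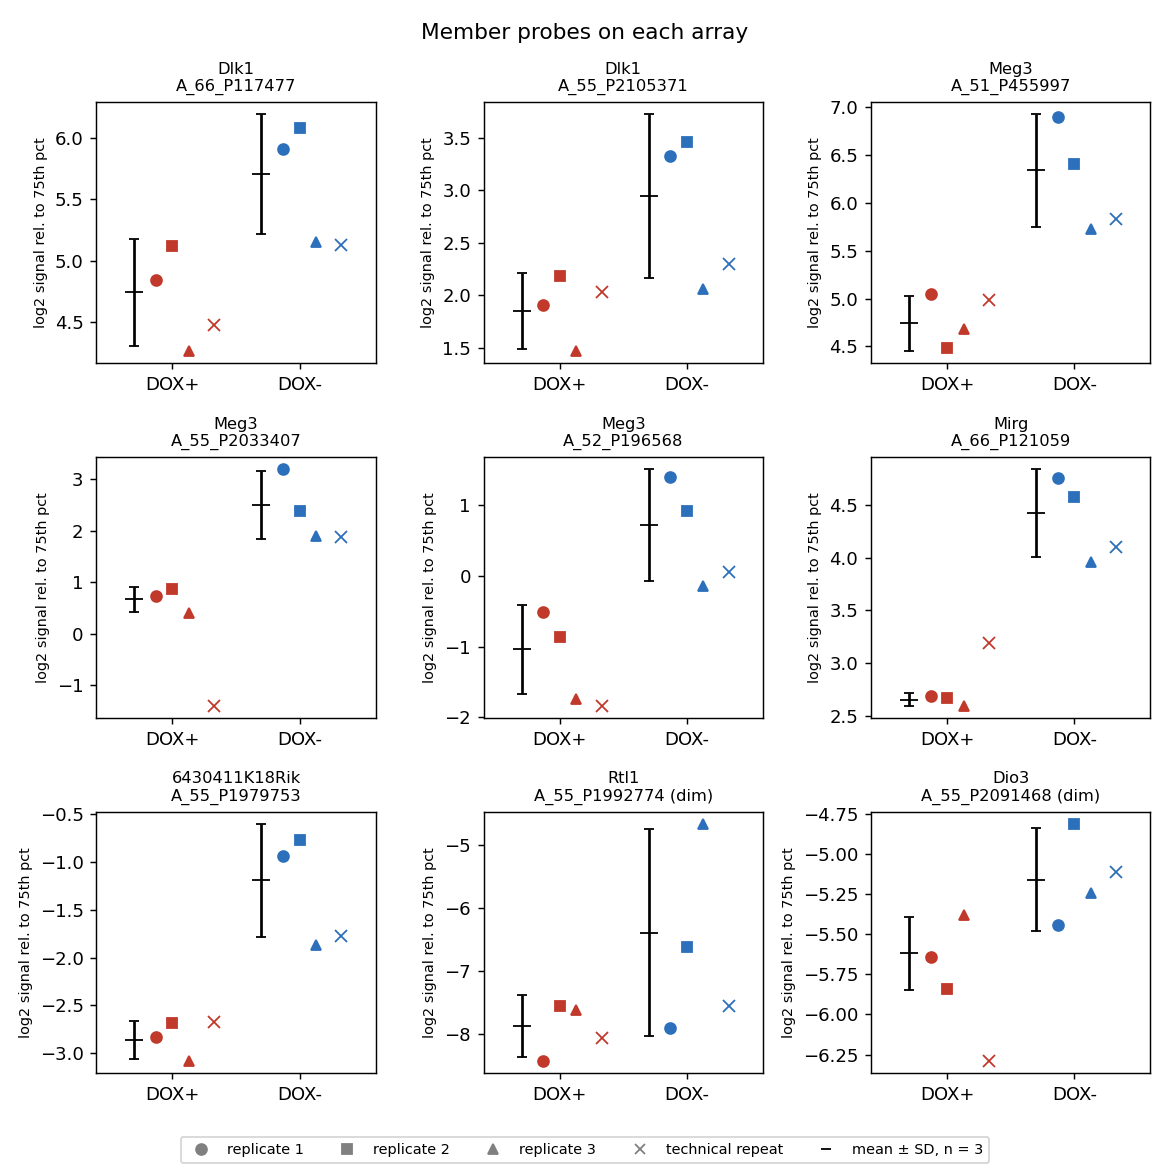
Log2 signal of the 9 member probes relative to the 75th percentile of each array (y axis, own range per panel), with DOX+ left of DOX-. Coloured marks are the 3 replicates and the technical repeat, and black bars are mean ± SD of the 3 replicates; in 6 of the 7 kept probes the DOX+ replicates lie below all DOX- replicates, and the 2 dim probes are Rtl1 and Dio3.

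Of the 7 kept probes, 6 did not overlap between groups, against 9.54% of all kept probes that lay lower in DOX+ without overlap. Within replicate numbers, all 7 probes were lower in the DOX+ array of each of the 3 pairs. Pair 3 had the smallest difference in 7 of 7 probes: Mirg, for example, differed by -2.07, -1.91 and -1.37 in pairs 1, 2 and 3. DOX- replicate 3 was the lowest DOX- array for 7 of 7 probes. No share over all kept probes was worked out for these pair and replicate counts, and the contrast chose the domain, so nothing is read from them. By the labels' array positions, replicate 3 and the technical repeats sat on another row of the 1 slide than replicates 1 and 2, so row and replicate number cannot be told apart. With the replicate number as a block, all 7 probes fell, among 4.29% of all kept probes that did. That the numbers pair the samples is not stated by the sample titles.

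The count of 4 rested on the full set of arrays. It was 1 without DOX+ replicate 1, 1 without DOX+ replicate 2, 0 without DOX+ replicate 3, 2 without DOX- replicate 1, 0 without DOX- replicate 2 and 5 without DOX- replicate 3. The differences themselves stayed below 0 in each of these fits: Mirg ranged from -2.02 to -1.62, the Meg3 probe A_51_P455997 from -1.91 to -1.33 and the Dlk1 probe A_66_P117477 from -1.25 to -0.73.

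The technical repeats gave 1 further pair of arrays, with no test. By their name they are taken to hybridise again the RNA of a replicate that the labels do not name, so they add no sample. Each was most like replicate 3 of its group, with which it shared a slide row (r of probe-centred values 0.53 for DOX+ and 0.54 for DOX-). All 7 probes were lower in the DOX+ array of this pair, as were 46.8% of all kept probes. Mirg read 3.19 in the DOX+ and 4.10 in the DOX- technical repeat, and Dlk1 (A_66_P117477) read 4.47 in the DOX+ and 5.13 in the DOX- repeat. The Meg3 probes split: A_51_P455997 had 4.98 in the DOX+ and 5.83 in the DOX- repeat, whereas A_55_P2033407 had -1.40 in the DOX+ and 1.89 in the DOX- repeat. The DOX+ repeat thus lay inside the DOX+ replicates' range for 3 of 7 probes, below it for 2 and above it for 2.

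**Figure D2:**
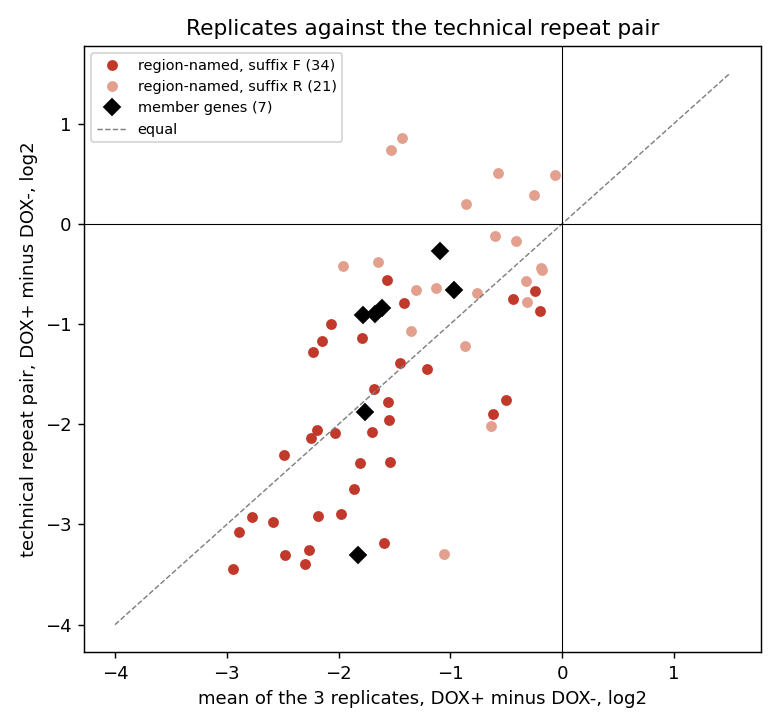
DOX+ minus DOX- difference in log2 of each kept probe of the domain, as the mean over the 3 replicates (x axis) and in the single technical repeat pair (y axis), with the line of equal values dashed. All 7 member probes (diamonds) and all 34 suffix F probes lie below 0 on both axes, while 15 of the 21 suffix R probes lie below 0 in the technical pair.

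Spike-in scaling changed how large the member differences were. Relative to the 4 brightest spike-in probes, the 75th percentile itself lay higher on the DOX+ than on the DOX- array of each pair, by 1.02, 0.75 and 1.61 in pairs 1, 2 and 3. The mean of these 3 shifts was 1.13 (SD 0.44), and the shift was 0.35 in the technical repeat pair. On the spike-in scale the 2 Dlk1 probes differed by 0.16 and 0.03, the 3 Meg3 probes by -0.48, -0.70 and -0.63, Mirg by -0.65 and 6430411K18Rik by -0.54. On that scale 5 of 7 were below 0, 0 passed and 0 had an unadjusted p under 0.05 (limma). Differences below are on the 75th percentile scale unless the spike-in scale is named.

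**Figure D3:**
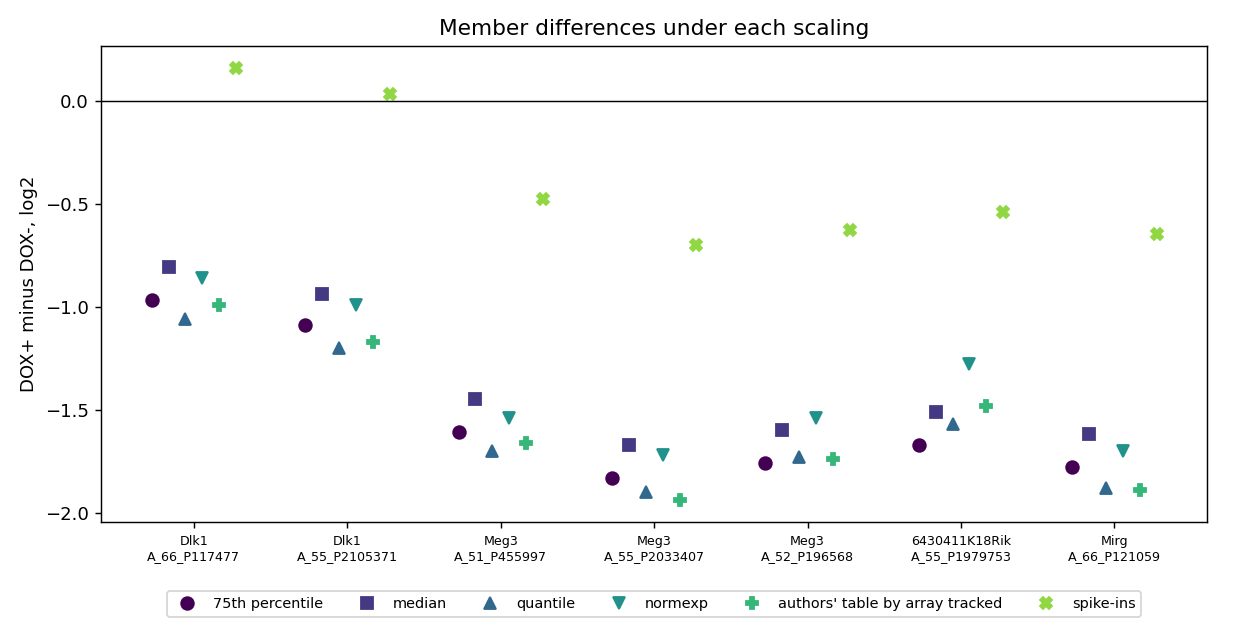
DOX+ minus DOX- difference in log2 (y axis) of the 7 kept member probes (x axis) under 6 ways of scaling or sourcing the signal. Spike-in scaling gives the highest value for each probe, above 0 for the Dlk1 probes (0.16 and 0.03), while the other 5 settings lie below 0 for all 7 probes.

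Of the 83 region-named probes, 55 were kept, and 30 fell while 0 rose. Across the array 1.25% of the 7287 kept region-named probes fell and 1.22% rose. Some of the probes that fell were kept through the DOX- arrays alone, where their signal was higher. When all 6 arrays had to be well above background, 24 of 47 fell. Regions overlap one another, so several probes can report the same transcript and the 55 are not independent measures. Probe names end in F or R, whose meaning the sources used here do not give. Of the 34 kept F probes 24 fell, with a median difference of -1.84, and of the 21 kept R probes 6 fell, with a median of -0.76. Elsewhere on the array, the median was -0.13 over 3483 F probes, of which 0.861% fell, and -0.10 over 3749 R probes, of which 0.827% fell. On the spike-in scale the medians in the domain were -0.72 for F and 0.36 for R probes, so the sign of the R median turned, 0 probes passed and 4 had an unadjusted p under 0.05, all lower in DOX+.

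The calls lay in the regions from chr12:110842149-110845695 to chr12:110944403-110988678. There 24 of 32 kept F probes fell, from -2.94 to -0.24 with a median of -1.92, and 6 of 16 kept R probes fell, with a median of -0.96. In the regions before them, 0 of 6 kept probes passed (limma), 1 had an unadjusted p under 0.05, lower in DOX+, and their median was -0.45, and the 1 kept probe after them had -0.64 and did not pass. The nearest regions outside the window, chr12:110074255-110075707 and chr12:111287772-111333890, had 6 kept probes from -0.69 to 0.19, of which 0 passed and 1 had an unadjusted p under 0.05. The count of 30 was 13, 17 and 9 without DOX+ replicate 1, 2 and 3, and 18, 6 and 25 without DOX- replicate 1, 2 and 3.

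Among the overlapping regions, the lowest single probes came from 3 neighbours. In chr12:110842149-110845695 all 3 kept F probes fell, with a median of -2.25. In chr12:110842154-110883594 both kept F probes fell, with differences of -2.94 and -2.49. In the region chr12:110845020-110850870, which lies inside it, only 1 of 5 F and 3 of 5 R probes were kept. The kept F probe had -0.44 and the 3 kept R probes a median of -0.25. Of these 4 probes 0 passed (limma), 1 with an unadjusted p under 0.05. The dim probes of the region were not tested but had lower means in DOX+, such as -7.69 against -4.99 in DOX- for the F probe A_30_P01032946. Whether this region differs from its neighbours can therefore not be read from its kept probes. In chr12:110870903-110891628 both F probes fell, with a median of -2.74, and 3 of 5 kept R probes fell, with a median of -1.35. Both F probes of chr12:110894095-110899517 fell, with a median of -2.39. Further along, 4 of 4 kept F probes of chr12:110896603-110940553 fell, from -2.26 to -2.15, while its 2 kept R probes had -0.19 and -0.18 and did not pass. The longest region, chr12:110944403-110988678, had 7 of 10 F probes that fell, with a median of -1.56, and 3 of 6 kept R probes that fell, with a median of -0.99. Inside it, chr12:110973190-110987668 is 14479 bases long against 14478 for the RefSeq span of Mirg, and all 3 of its F probes fell, from -1.86 to -1.41. Only those lengths were compared, since the array names use mm9 and RefSeq another build.

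The 8 kept region probes of highest mean signal, all with suffix F, did not overlap between groups. Neither did 43 of the 55 kept region probes, against 9.54% of all kept probes that lay lower in DOX+ without overlap. Because the contrast chose the domain, nothing is read from these counts. A_30_P01027400 of chr12:110842154-110883594 had 1.17, 1.96 and 0.89 on the DOX+ arrays, against 3.78, 4.24 and 3.48 on the DOX- arrays, and fell by 2.49 (SE 0.33). A_30_P01026799 of chr12:110894095-110899517 had 0.84, 1.75 and 0.94 on the DOX+ arrays, against 3.76, 3.79 and 3.43 on the DOX- arrays, and fell by 2.48 (SE 0.27). A_30_P01032789 of the same region had 0.28, 1.02 and 0.47 on the DOX+ arrays, against 3.09, 2.86 and 2.73 on the DOX- arrays, and fell by 2.30 (SE 0.23). In these 3 probes DOX+ replicate 2 was the highest DOX+ array, and the lowest DOX- array was above it by more than the range of the DOX+ arrays.

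The other 5 of the 8 had differences from -1.98 to -0.62. A_30_P01019435 of the region of Mirg's length had -0.36, -0.21 and 0.04 on the DOX+ arrays, against 1.82, 1.40 and 0.88 on the DOX- arrays, and fell by 1.54 (SE 0.26). A_30_P01023076 of chr12:110944403-110988678 had -0.88, -0.60 and -0.98 on the DOX+ arrays, against 1.46, 1.32 and 0.71 on the DOX- arrays, and fell by 1.98 (SE 0.24). In both, DOX- replicate 3 was the lowest DOX- array, as it was for 40 of the 55 kept region probes. No share over all kept probes was worked out for that count either. A_30_P01021613 of that longer region had -0.17, -1.12 and -0.56 on the DOX+ arrays, against 1.42, 0.93 and 0.51 on the DOX- arrays, a difference of -1.57 (SE 0.32) that did not pass. A_30_P01020822 of chr12:110909258-110913909 had 0.04, -0.95 and -0.82 on the DOX+ arrays, against 2.33, 0.96 and 0.35 on the DOX- arrays, and its difference of -1.79 (SE 0.53) did not pass. The odd one was A_30_P01027949 of the longest region, with 1.33, 1.58 and 1.13 on the DOX+ arrays, against 1.61, 2.13 and 2.18 on the DOX- arrays. Its difference of -0.62 (SE 0.22) did not pass and was 0.50 with spike-in scaling.

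**Figure D4:**
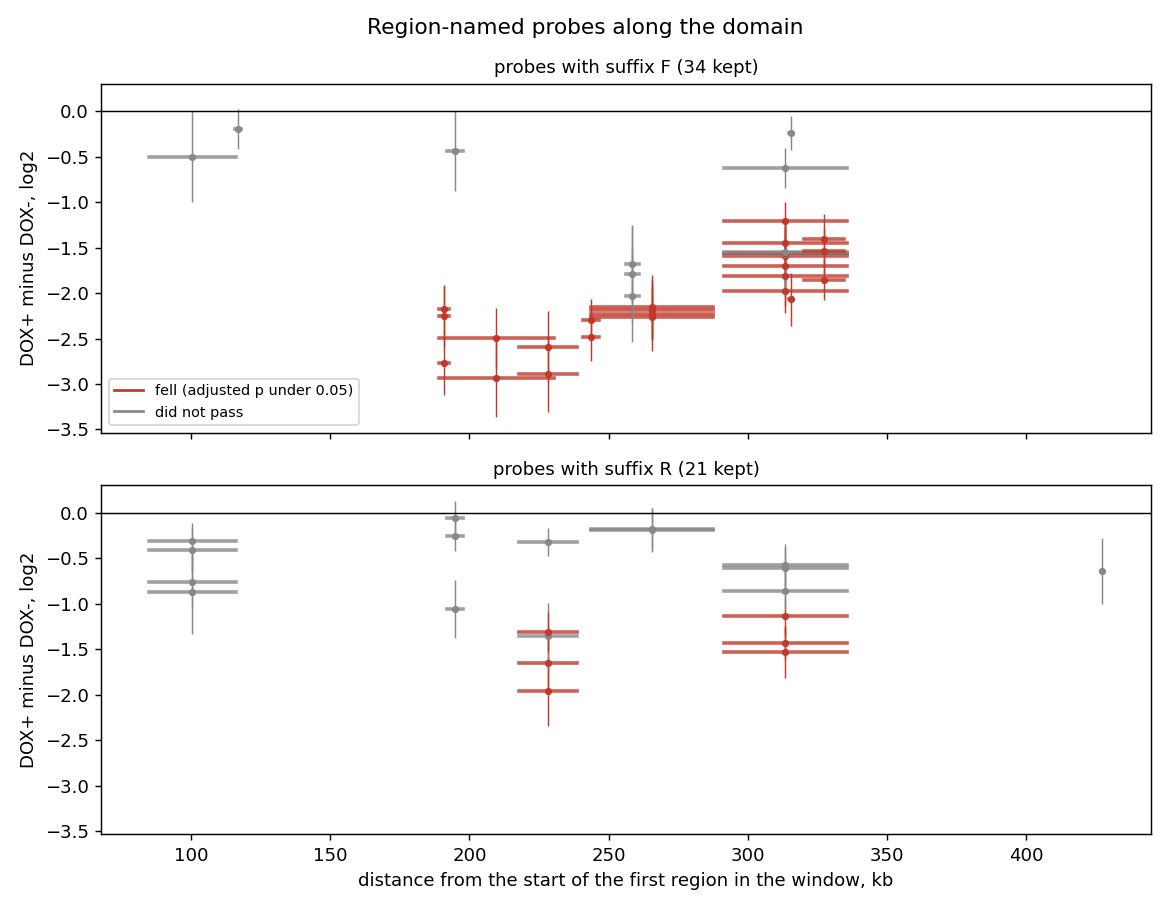
DOX+ minus DOX- difference in log2 (y axis) of the 55 kept region-named probes by distance from the first region of the window in kb (x axis), suffix F above and suffix R below. Each horizontal line spans the named region, with the SE as a vertical bar and red for probes that fell; 24 of 34 F probes and 6 of 21 R probes are red.

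The genes on either side gave no call. Of the 10 nearest genes with a kept probe on each side, 0 of 20 passed (limma), and 1 had an unadjusted p under 0.05, on the higher side. Their median difference was -0.01, against 0.09 over the 14518 genes tested by their brightest probe, of which 1.59% fell and 3.35% rose. Before Dlk1, Begain differed by 0.21 (SE 0.21), Wdr25 by 0.01 (SE 0.20) and Wars, a tRNA synthetase, by 0.11 (SE 0.17). After Dio3, Ppp2r5c, a phosphatase subunit, differed by 0.11 (SE 0.21), Dync1h1, the dynein heavy chain, by -0.01 (SE 0.15) and 1700001K19Rik by -0.01 (SE 0.24). The range ran from -0.69 (SE 0.41) for Cyp46a1 to 0.45 (SE 0.15) for Slc25a29. The gap between the members and these neighbours was not tested.

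**Figure D5:**
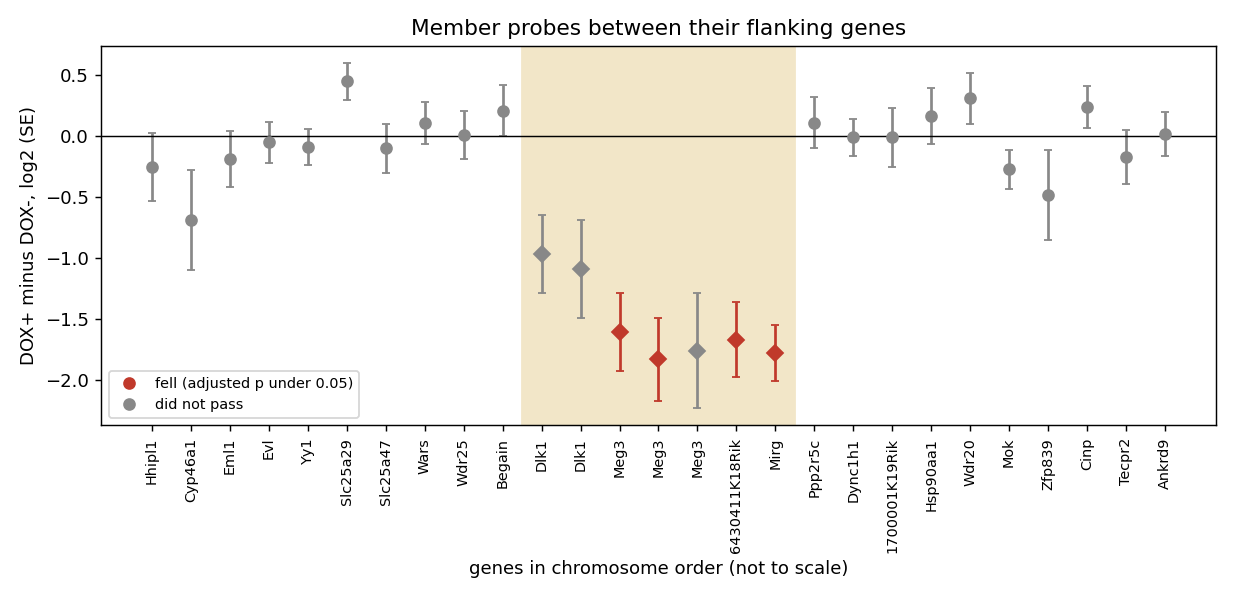
DOX+ minus DOX- difference in log2 with its SE (y axis) for the 7 kept member probes (shaded) and 10 genes on each side in chromosome order (x axis, not to scale). Red marks fell: 4 of the 7 member probes do, and the 20 flanking genes, from -0.69 to 0.45, do not pass.

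Imprinted genes of other chromosomes gave 3 calls among 26 tested, all lower in DOX+ cells, with a median of -0.23, and 5 with the replicate block. Without the block, 1.59% of all genes fell and 3.35% rose. Mest, a hydrolase-family gene, fell by 1.83 (SE 0.17), with means of 6.39 in DOX+ and 8.21 in DOX- cells. Zim1, a zinc finger gene, fell by 1.74 (SE 0.16), and Igf2r, the receptor that clears Igf2, fell by 1.08 (SE 0.21), although Igf2r had 0.05 with spike-in scaling. Leaving out any 1 of the 6 arrays left 2 calls, without Igf2r, and on the spike-in scale Mest had -0.70 and Zim1 -0.61 and neither passed. Genes for imprint maintenance and for regulators of the methylated region between Dlk1 and Meg3 gave 0 calls among 17 tested. Of these, 2 had an unadjusted p under 0.05 (limma), both higher. Ehmt2, a histone methyltransferase and the brightest of them, differed by -0.15 (SE 0.24). With the replicate block, under which 4.92% of all genes fell and 6.43% rose, 2 of these rose. They were the DNA methyltransferase Dnmt3b, by 1.27, and the histone methyltransferase Setdb1, by 0.70. Without DOX+ replicate 1 there was 1 call. On the spike-in scale, where 98.9% of called probes rose, Dnmt3b was the 1 call, higher by 2.4. Polycomb repressive complex 2 gave 0 calls among 11 tested, 1 at an unadjusted p under 0.05, and its brightest member Rbbp7 differed by 0.06 (SE 0.15). With the block its catalytic subunit Ezh2 rose by 0.66.

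Lists tied to what the members do were read against the shares given above, 1.59% of all genes lower and 3.35% higher. Of 16 Notch pathway genes 2 rose and 1 fell, with a median of -0.19. Blocking on replicate number gave 3 higher and 2 lower Notch calls. The glycosyltransferase Lfng rose by 2.12 (SE 0.39), the receptor Notch2 rose by 1.12 (SE 0.15) and the ligand Jag1 fell by 1.67 (SE 0.18). Among the 6 fits that left out an array, Jag1 was called in 6, Notch2 in 4, not without DOX+ replicate 3 or DOX- replicate 2, and Lfng in 1, without DOX- replicate 3. Lfng had 0.91 with normexp and did not pass. On the spike-in scale Jag1 had -0.54 and did not pass. Of 10 thyroid hormone genes, Crym, which binds the hormone, fell by 0.77 (SE 0.15), but it had 0.36 with spike-in scaling and did not pass when any 1 array was left out. Of 13 genes for small RNA processing, Adarb1, an RNA-editing enzyme, fell by 1.79 (SE 0.18), with -0.66 and no call on the spike-in scale.

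Some cell type markers also differed between the groups, and their part in the member differences was not tested. The 10 hemogenic endothelium markers were all measured, so the labelled cell type was not without them, and their summed signal (in units of the 75th percentile) was 71.0 to 142 on the DOX+ arrays and 77.0 to 184 on the DOX- arrays. Kdr and Cdh5 together made 54.4% to 62.7% of it. Sox17 fell by 3.54 (SE 0.57) and Gfi1 rose by 3.37 (SE 0.51). The sum of smooth muscle and mesenchyme markers was 563 to 664 in DOX+ and 759 to 884 in DOX- cells. Of these markers 0 of 11 passed the threshold (limma), with 1 higher and 4 lower at an unadjusted p under 0.05. Myh11 was not above background on any array. It was the only marker sum without overlap between the groups, but its technical repeats, 715 in DOX+ and 750 in DOX-, lay between the ranges. Acta2 and Tagln made 87.5% to 93.5% of that sum. Acta2 differed by -0.65, but by 0.47 on the spike-in scale. On that scale the median difference of every marker list was above 0, from 0.65 for smooth muscle and mesenchyme to 2.31 for endoderm and epithelium. The blood cell sum was 56.4 to 64.5 in DOX+ and 59.6 to 162 in DOX- cells, and 2 of 10 rose, Spn by 4.51 (SE 0.39) and Was by 1.86 (SE 0.22). Itgam and Hbb-bh1 made 82.5% to 97.0% of that sum, so it says little of the other markers in the list. Among endoderm and epithelium markers the sum was 218 to 311 in DOX+ and 159 to 369 in DOX- cells, 2 of 4 tested rose, Cdh1 by 2.27 (SE 0.34) and Foxa2 by 2.58 (SE 0.29), and Apoa1 and Ttr were not above background on any array. Krt18 and Krt8 made 97.4% to 99.8% of that sum. The cardiac sum was 5.29 to 22.8 in DOX+ and 11.8 to 54.8 in DOX- cells, with 0 of 5 past the threshold, 0 at an unadjusted p under 0.05, and Myl7 not above background. Tnnt2 and Nkx2-5 made 78.5% to 98.4% of that sum. Among the 6 fits that left out an array, Sox17 was called in 2 (without DOX+ replicate 3 or DOX- replicate 1), Gfi1 in 3 (without DOX+ replicate 1, DOX- replicate 1 or DOX- replicate 3) and Cdh1 in 3 (without DOX+ replicate 2, DOX- replicate 1 or DOX- replicate 3). The pluripotency sum, 75.4% to 87.9% of it from Nanog and Utf1, was 1.42 to 1.53 in DOX+ and 1.40 to 2.37 in DOX- cells, with 0 of 5 past the threshold and 1 higher and 1 lower at an unadjusted p under 0.05. Blocking on replicate number gave 1 higher and 3 lower calls among hemogenic endothelium markers, 1 higher and 2 lower among smooth muscle and mesenchyme markers, 4 higher and 1 lower among blood cell markers and 1 lower among cardiac markers.

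The members tracked one another across the 6 arrays, which share the group difference. The 2 Dlk1 probes had a Pearson r of 0.98, Mirg and 6430411K18Rik 0.98, and Dlk1 (A_66_P117477) and Meg3 (A_51_P455997) 0.84. After each group's mean was removed, these were 0.96, 0.91 and 0.50. Of 13472 other genes, those most like Dlk1 over the 6 arrays were Socs2 (r 0.988), Otud1 (0.988), Psd (0.986), Gm7337 (0.985) and Cel (0.984). Most like Meg3 were Rtn1 (0.995), Klhl13 (0.994), Tmem202 (0.994), 2610008E11Rik (0.992) and Dmkn (0.992). Most like Mirg were Cdo1 (0.994), Adgrg6 (0.994), Rnf165 (0.991), Jag1 (0.990) and Snhg12 (0.989). Of the 5 genes listed for each, 0 were called for Dlk1, 1 for Meg3 and 4 for Mirg, against 1.59% of all genes that fell. The genes were picked from 13472 by likeness over arrays that hold the group difference, so nothing is read from these calls.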

How the data were processed

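Gene expression was measured on 8 Agilent one-colour arrays of 1 slide and 1 scan. Per the file headers, the deposited signal intensity was extracted and background-subtracted with Feature Extraction 10.7.3.1 (the submitters' processing notes give 10.7.1.1 and limma) against an mm9 design. The authors' deposited table holds log2 values, but only 2 of its 8 columns track the array they are named for, so it served as an alternative in both readings. The deposited flags mark probes well above background and outlier spots, and outlier spots were left out.

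Spots of a probe were averaged as log2 intensity minus the 75th percentile of the array. Probes well above background on all 3 arrays of a group were fitted with limma 3.58.1 (R 4.3.3, lmFit and eBayes, two-sided, Benjamini-Hochberg, threshold 0.05), which was tested on simulated data. Technical repeats, whose source RNA the labels do not give, were left out of the fit. Same-numbered DOX+ and DOX- arrays deviated together (r 0.61, 0.40 and 0.31, against -0.43 to 0.17 for other combinations). The sample titles do not state a pairing, and paired samples and shared array position cannot be told apart. The main fit did not use the replicate number, and the replicate block did. Genes were represented by their brightest kept probe. Members, windows and lists were chosen with earlier results of these data known. Named were all member probes, the 8 brightest region probes, the nearest 3 flanking genes on each side and those at the ends of the range (chosen after their values were seen), up to 4 calls per list or its brightest gene, and the 5 most alike genes. Alternatives were scaling by median, quantiles or 4 spike-in probes, normexp with offset 50 on the median signal (no mean signal was in the files used here), other filters, 1 probe per gene, the replicate block, the authors' table and leaving out each array. The number of arrays limits the precision.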

Additional observations from a re-analysis of the deposited data

How the results depend on the processing

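The count of member probes past the threshold, 4 as reported, was 3 with median centring, 3 with quantile normalization, 4 with normexp, 4 on the stricter filter, 3 of 4 genes with 1 probe per gene and 4 with the authors' table read by the array each column tracks. It was 7 with the replicate block, 1 with no filter on dim probes, where 55681 probes were tested, 0 with spike-in scaling and 0 with the authors' table read by its column names. Region-named probes past the threshold, 30 as reported, numbered 24 of 47 when all 6 arrays had to be well above background. They numbered 9 with no filter, 0 with spike-in scaling and 0 with the authors' columns as named. Over all probes, 1198 differed, against 403 with no filter, 2900 with the replicate block and 0 with the authors' columns as named. The share of called probes that rose was 62.0%, 72.7% when arrays were centred on their medians and 98.9% on the spike-in scale. Leaving out 1 array gave 393 to 1003 probes in all, 0 to 5 member probes, 6 to 25 region probes and 0 flanking genes, with fewer samples in each fit. Flanking genes gave 0 calls under all 16 alternatives. The Dlk1 probes turned to 0.16 and 0.03 with spike-in scaling and to 0.19 and 0.29 with the authors' columns as named, where Mirg had 0.01 and 6430411K18Rik 0.11; that reading mixes DOX+ and DOX- arrays, since 6 columns track another array. Why spike-in scaling moves the values was not tested. The slide or scan as a block was not run, since there is 1 of each. Probes not above background on all arrays of a group, as for Rtl1 and Dio3, give no difference.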

Other observations

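The technical repeat pair, which adds arrays but no sample, gave a median difference of -2.07 over the 34 kept suffix F probes. It gave -0.44 over the 21 kept suffix R probes, against 0.06 over all kept probes. The DOX+ technical repeat lay below the range of the 3 DOX+ replicates for 33 of the 55 kept region probes, inside it for 14 and above it for 8. The DOX- technical repeat lay below the range of the DOX- replicates for 28 and inside it for 25.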
